A study of Mus musculus with 4 samples.

Results

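Non-responding corticospinal nuclei are here nuclei of layer 5 neurons that project to the spinal cord, chosen by counted transcripts. In them no transcript was counted of 5 genes taken here as a sign of a response to Sox11. The name stands for that count, and a weak or undetected response in the members was not tested. A nucleus was a member if it had at least 8000 unique molecular identifiers (UMIs, one per captured RNA molecule), at least 1 UMI of Slc17a7, at least 1 UMI of Fezf2, Bcl11b or Crym, no UMI of Gad1 or Gad2, and no UMI of Gpc2, Zfp57, Chn2, Kcnk2 or Thsd7a. Of 12582 barcodes in 4 libraries, 4628 passed the corticospinal gate and 2403 of those had 0 UMIs of the 5 response genes. The members came to 1547 nuclei for Control (826 from Control 1, 721 from Control 2) and 856 nuclei for Sox11 (292 from Sox11 1, 564 from Sox11 2). The 5 response genes had been picked from earlier results of the same libraries, so the share of nuclei without them is a description of the choice and was not tested.

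Both groups were adult C57BL/6 mice without a spinal injury named in their labels. They had an injection of AAV2-Retro, an adeno-associated virus that enters through axon ends, into the cervical cord. The virus bore Sox11 in one group and a control in the other, and brains were taken 2 weeks afterwards. The labels give the Control libraries the treatment entry "None" and the Sox11 libraries "Sox11". They name neither the promoter of the Sox11 vector nor the content of the control vector, and they do not say how many animals a library pooled. Nuclei were sorted on a nuclear fluorophore, mGl, that was delivered by virus as well, and the labels do not say whether every sorted nucleus had also taken up the Sox11 vector.

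Corticospinal neurons carry voluntary motor commands from the cortex to the spinal cord and are a standard model for failed axon regrowth in adults. Sox11 is a transcription factor of the SoxC family that is active in immature neurons and falls silent as they mature. Slc17a7 encodes the vesicular glutamate transporter of cortical excitatory neurons, and Fezf2 and Bcl11b are transcription factors that specify and guide corticospinal neurons.

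The sums of the members' UMIs amounted to 16217257 and 14081493 for Control 1 and Control 2, against 7504912 and 12872620 for Sox11 1 and Sox11 2. The median member had 17216, 16781, 23702.5 and 18741 UMIs in the same order, so the Sox11 1 members were the deepest. At most 3 barcodes were shared by any 2 libraries and no member barcode was. The counting software, Cell Ranger, was at version 7.1.0 in the Control files and at 7.2.0 and 8.0.0 in those of Sox11, and the gene tables held 0, 2, 13 and 13 vector entries. A difference of software or reference cannot be told apart from a difference between the groups in any result given here.

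The 2 most abundant listed corticospinal markers that the rule did not use, Sox5 and Ldb2, were high in the members. Sox5, a regulator of deep-layer identity, stood at 978, 827, 1031 and 1094 CPM (UMIs scaled to a common library total) in Control 1, Control 2, Sox11 1 and Sox11 2, and Ldb2 at 969, 827, 994 and 860. Fezf2, the regulator that specifies these neurons, is a gene of the rule, so its share is a description: it was found in 43.2%, 44.0%, 52.1% and 46.8% of members, against 15.9%, 18.1%, 23.9% and 23.0% of nuclei of 8000 or more UMIs with neither Slc17a7 nor response UMIs. That second class was shallower, with median UMIs of 11176 to 13510.5, and the part of depth in the lower share was not tested. In that second class Sox5 was at 475, 402, 567 and 666 CPM and Ldb2 at 548, 441, 501.5 and 581 CPM, so neither was confined to the members. Other listed markers were low in members, among them Npsr1 at 5.83 to 10.7 CPM and Tbr1 at 4.40 to 8.17 CPM. None of 13 tested corticospinal markers passed the test between groups, and their median log2 difference was 0.04.

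Markers of other cells were mostly low, and the sums of 2 lists did not overlap between groups. The 10 inhibitory markers summed to 4.01 and 2.98 CPM in Control and 2.67 and 2.80 in Sox11, with Gad1 and Gad2 at 0 by rule. The 8 vascular markers summed to 2.33 to 3.86 CPM with Cldn5 at 0 in every library. Astrocyte markers summed to 136 to 185 CPM, nearly all of it Slc1a2, while Aqp4 was at or under 0.0777 CPM. Microglial markers summed to 36.1 to 51.1 CPM with Tmem119 at 0, and oligodendrocyte markers to 64.2 to 77.7 CPM, most of it Mbp. Brainstem markers summed to 390 to 463 CPM, nearly all of it Esrrg, and Slc17a6, the glutamate transporter of brainstem neurons, was at 2.53 to 4.89 CPM. The 7 precursor markers of the oligodendrocyte lineage were the other list without overlap, at 3.33 and 4.33 CPM in Control and 5.46 and 6.45 CPM in Sox11, with Vcan making up most of it and Pdgfra at 0.284 CPM or less. Markers of other cortical layers summed to 334 to 377 CPM, most of it Etv1, Foxp2 and Tle4. Foxp2 was in 46.2% to 60.3% of members by library. Monoaminergic and peptidergic markers summed to 19.05 to 37.3 CPM. Hcrt was in 20.1% of Control 1 members against 0.277% to 0.532% in the other libraries, and Pmch in 5.69% of Control 1 members alone. Cartpt was in 1.695% and 24.3% of Control and 9.25% and 40.6% of Sox11 members. The part of all these markers in the results was not tested.

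In Control libraries most gated nuclei carried no response UMI, and in Sox11 libraries a minority did not. The share of gated nuclei without response UMIs was 84.1% in Control 1 (826 of 982, exact Clopper-Pearson 95% interval 81.7% to 86.4%) and 85.5% in Control 2 (721 of 843, 83.0% to 87.8%). It was 21.3% in Sox11 1 (292 of 1371, 19.2% to 23.6%) and 39.4% in Sox11 2 (564 of 1432, 36.8% to 42.0%). The intervals cover counting error only. The Sox11 libraries thus differed from each other as well as from the Control libraries.

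A deeper nucleus has more chance of showing a response UMI, and between the end bins 3 libraries ran that way while 1 did not. Only Control 2 fell at every step. Control 1 rose to 88.2% in the bin of 10000 to 15000 UMIs. Sox11 2 went from 40.2% in that bin to 41.8% in the bin of 15000 to 20000. From the bin of 8000 to 10000 UMIs to that of 30000 and over, the share without response UMIs went from 85.6% to 77.5% in Control 1, from 93.8% to 76.4% in Control 2 and from 47.0% to 35.5% in Sox11 2. In Sox11 1 it went the other way, from 8.51% (4 of 47) over 14.2%, 20.1% and 22.9% to 28.6% (88 of 308). After each gated nucleus was thinned to 8000 UMIs, which no gated nucleus fell below, the shares were 90.9%, 91.8%, 34.9% and 53.4%.

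**Figure D1:**
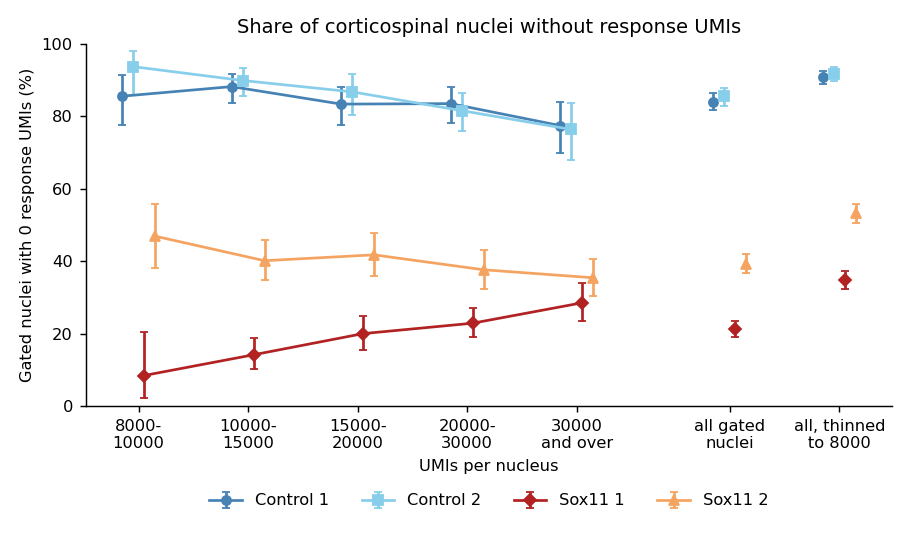
Share of gated corticospinal nuclei with 0 UMIs of the 5 response genes (vertical axis, percent) by UMIs per nucleus (horizontal axis), for all gated nuclei, and after thinning to 8000 UMIs; points are libraries and bars are exact 95% binomial intervals. Both Control libraries lie between 76.4% and 93.8% in every depth bin, Sox11 2 between 35.5% and 47.0%, and Sox11 1 climbs from 8.51% to 28.6%.

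The sex of the nuclei, read from Xist (the RNA that coats the inactive X chromosome) and 4 Y-linked genes, gave a further split of the Sox11 libraries; the split was made after the data were seen. Control 1 members were almost all of Xist type (98.9% with Xist and no Y transcript), Control 2 members almost all of Y type (96.3%), and both Sox11 libraries held both, so each Sox11 library held nuclei of more than 1 animal. Another 10.1% and 8.66% of gated nuclei in Sox11 1 and Sox11 2 held both kinds of transcript. In Sox11 1, 14.8% of Xist-type gated nuclei had no response UMI (110 of 741, exact 95% interval 12.4% to 17.6%), against 31.9% of Y-type nuclei (148 of 464, 27.7% to 36.4%). In Sox11 2 the shares were 36.0% (242 of 673, 32.3% to 39.7%) and 44.2% (273 of 618, 40.2% to 48.2%). The non-responding share was higher among Y-type nuclei in both Sox11 libraries. The intervals cover counting error over nuclei only, and nuclei are not replicates of a sex. With animals unnamed, sex and animal cannot be told apart. Y-type members had the lower median UMIs, at 22738 against 24746.5 for Xist-type members in Sox11 1 and 17968 against 20047.5 in Sox11 2. The part of depth in the shares by sex was not tested.

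A count of 0 response UMIs is not absence of the transcripts. Thinning to 8000 UMIs raised the share at 0 from 21.3% to 34.9% in Sox11 1 and from 39.4% to 53.4% in Sox11 2. Nuclei with a weak or undetected response can thus be among the members, and their part was not tested. The comparison of Sox11 with Control members asks what differs in corticospinal nuclei in which no response UMI was counted. It was tested over 15433 genes with edgeR's quasi-likelihood test on the 4 sums, 2 against 2, with Benjamini-Hochberg adjusted p under 0.05 as the threshold. Shoc1 and Trpm3 rose and no gene fell: 2 genes passed, or 0.013% of those tested. At an unadjusted p under 0.05 there were 824 genes (5.34%), and DESeq2 called 3 genes higher and 1 lower. Leaving out Control 1, Control 2, Sox11 1 or Sox11 2 gave 22, 125, 16 and 78 calls, each from 3 libraries. Both Sox11 libraries stood above both Control libraries at 2428 genes (15.7%) and below them at 2556 (16.6%). In all gated nuclei, responding ones included, the same test called 561 of 17379 genes (3.23%), 398 higher (2.29%) and 163 lower (0.938%), and without 1 library in the same order it called 128, 278, 229 and 843. When the gated nuclei were drawn at random down to the members' number in each library, an alternative added after the data were seen, the test still called 326 genes, 253 higher and 73 lower. The labels do not say that the libraries came from separate animals within a group, so p-values measure only the spread between these libraries.

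Shoc1 encodes a protein of meiotic recombination (ENSMUSG00000038598, mm10 chromosome 4, 59043753 to 59138983, minus strand, protein-coding). Its level in members was 27.1 and 29.9 CPM in the Control libraries and 186 and 107 CPM in the Sox11 libraries, or 28.5 ± 1.96 against 147 ± 55.9 CPM (SD, n = 2 each). Both Sox11 libraries stood far above both Control libraries, and Sox11 1 above Sox11 2. The log2 fold change was 2.36 (SE 0.24, edgeR adjusted p = 0.00788).

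The transcript was spread over many nuclei. A Shoc1 UMI was found in 32.9% and 35.8% of Control members and in 72.6% and 55.3% of Sox11 members, and the tenth of members with the most Shoc1 UMIs held 51.1%, 48.2%, 29.5% and 40.9% of them. Shoc1 also rose outside the corticospinal gate, from lower levels: in nuclei without Slc17a7 and without response UMIs its level was 16.5, 19.0, 120 and 88.9 CPM, for a fold change of 2.55 on the log2 scale (edgeR adjusted p = 0.00116), and it was the one gene of 11294 called there (0.00885%); without Control 1, Control 2, Sox11 1 or Sox11 2 the calls there numbered 7, 36, 10 and 11. The difference between the effects in the 2 classes was -0.26 on the log2 scale (edgeR interaction, adjusted p = 1.00).

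Neighbouring genes did not share the difference. Of 9 tested genes within 500000 bases of Shoc1, all had log2 fold changes between -0.19 (Susd1) and 0.34 (Gng10), with edgeR adjusted p = 1.00 for each. Gng10, a G protein subunit whose gene ends 1850 bases from that of Shoc1, was at 6.54, 7.39, 8.66 and 9.01 CPM. Ugcg, the enzyme that makes glucosylceramide, was at 22.0, 27.1, 20.9 and 28.2 CPM.

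Shoc1 was highest in the nuclei with the fewest response UMIs. In Sox11 1 it was 186 CPM in nuclei with 0 response UMIs, 135 with 1, 116 with 2 to 4 and 103 with 5 or more, and in Sox11 2 it was 107, 78.9, 60.3 and 52.0 CPM. In Control 1 it was 27.1, 21.5, 13.1 and 6.08 CPM and in Control 2 29.9, 28.0, 27.1 and 16.0, where the last bins rest on 21 and 15 nuclei. All 4 libraries ran in the same order. The summed level of the 398 genes that rose in all gated nuclei ran the other way, from 10340 to 26860 CPM in Sox11 1 and from 10460 to 24910 in Sox11 2. The sums of nuclei with response UMIs gave 111 and 61.1 CPM in the Sox11 libraries against 17.3 and 25.9 in Control.

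Trpm3 encodes a cation channel of the transient receptor potential family, known for its response to heat and to neurosteroids (ENSMUSG00000052387, mm10 chromosome 19, 22139046 to 22995410, plus strand, protein-coding). It was 37.2 and 46.2 CPM in the Control libraries and 99.0 and 113 CPM in the Sox11 libraries, or 41.7 ± 6.40 against 106 ± 10.0 CPM (SD, n = 2 each). The groups did not overlap and the Sox11 libraries lay close together. The log2 fold change was 1.35 (SE 0.17, edgeR adjusted p = 0.0471), just inside the threshold. It missed the threshold in 5 of 19 alternative settings, with an adjusted p of up to 0.184 when more response genes were required to be at 0, whereas Shoc1 passed in 19 of 19.

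Trpm3 was higher where response UMIs were more, the reverse of Shoc1. In Sox11 1 it was 99.0, 203, 426 and 594 CPM from 0 to 5 or more response UMIs, and in Sox11 2 113, 248, 414 and 547 CPM. In Control 1 it was 37.2, 72.9, 99.6 and 296 CPM and in Control 2 46.2, 71.7, 74.9 and 150. The members are thus the low end of a graded level, with the next bin, of 1 response UMI, at 203 and 248 CPM in the Sox11 libraries. A Trpm3 UMI was found in 33.5% and 44.5% of Control members and in 62.3% and 61.2% of Sox11 members.

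In the nuclei without Slc17a7 and without response UMIs, Trpm3 was 153, 182, 258 and 212 CPM; its difference of 0.50 on the log2 scale did not pass (edgeR adjusted p = 0.996). The effect was larger in the corticospinal members by 0.89 on the log2 scale (edgeR interaction, adjusted p = 0.00429), 1 of 6 genes among 14569 called for such a difference (0.0412%). Without Sox11 2 that adjusted p was 0.0833, and DESeq2 gave 0.597. A pair of transcripts on the opposite strand within the gene were low: Gm27151 was at 0.493, 0.426, 1.33 and 1.01 CPM and C330002G04Rik at 3.82, 3.13, 4.80 and 4.43 CPM, and neither passed.

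The 2 annotated starts of Trpm3 in RefSeq (build GRCm38.p6, which is mm10) are shown because the gene is 1 of the 2 that rose and because Gm27151 lies across the second. Each stretch runs from 250 bases before the start to 50 after it, on the plus strand, at chr19:22138796-22139095 and chr19:22447958-22448257.
Trpm3 start 1: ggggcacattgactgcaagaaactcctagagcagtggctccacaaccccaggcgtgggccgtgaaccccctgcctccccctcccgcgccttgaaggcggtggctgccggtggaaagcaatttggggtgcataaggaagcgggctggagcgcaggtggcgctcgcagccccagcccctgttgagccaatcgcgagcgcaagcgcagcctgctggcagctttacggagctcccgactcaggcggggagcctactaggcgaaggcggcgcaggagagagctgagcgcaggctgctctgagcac
Trpm3 start 2: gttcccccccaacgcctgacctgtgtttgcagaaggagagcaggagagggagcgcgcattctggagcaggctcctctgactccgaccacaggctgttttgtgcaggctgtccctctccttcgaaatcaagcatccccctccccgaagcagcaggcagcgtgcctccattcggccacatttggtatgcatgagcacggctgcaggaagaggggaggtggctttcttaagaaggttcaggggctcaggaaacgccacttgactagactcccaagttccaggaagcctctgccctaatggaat
Neither holds ACAAAG or its reverse complement CTTTGT, the core letters of sites that Sox proteins bind, so no letters are in capitals. The motif is in 6147 of 32851 RefSeq promoters of that length (18.7%), and its absence says only that these letters are not in these windows.

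**Figure D2:**
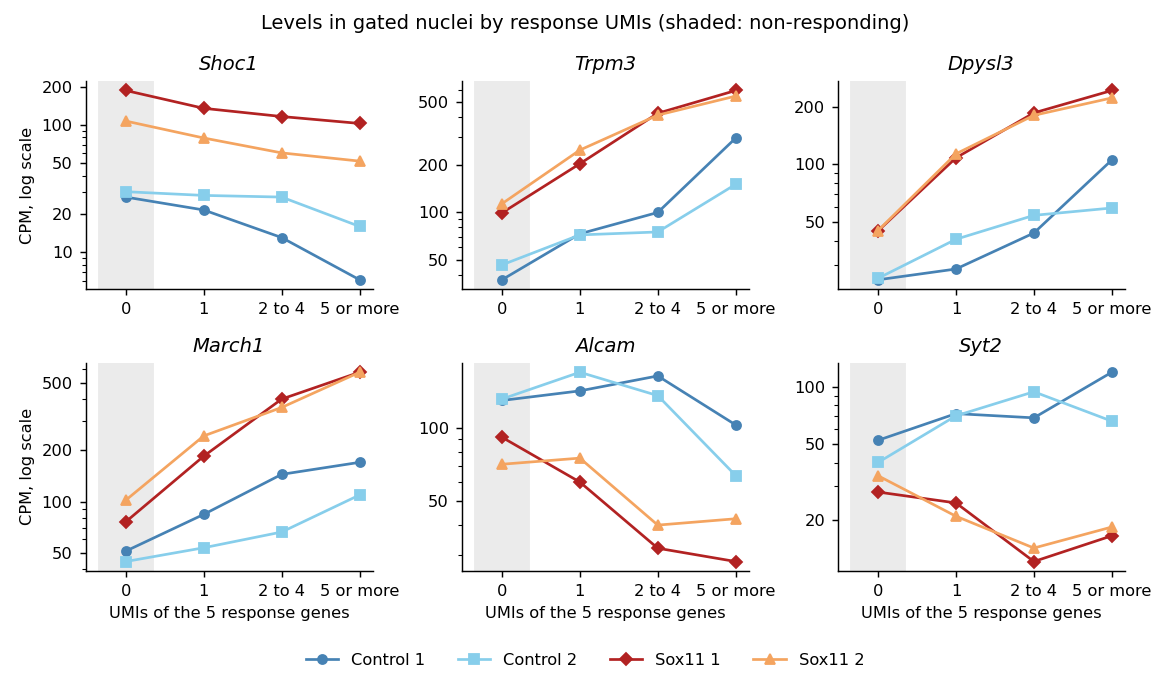
Levels of 6 genes (vertical axes, CPM on a log scale) in gated corticospinal nuclei by their UMIs of the 5 response genes (horizontal axes); each line is a library, and the shaded bin is the non-responding members. Shoc1 falls from 186 to 103 CPM in Sox11 1 and from 107 to 52.0 CPM in Sox11 2, while Trpm3 climbs to 594 and 547 CPM.

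Below the threshold, the genes with the smallest p on the higher side (other than the called pair) are given as values, and none passed (edgeR adjusted p from 0.474 to 0.498). Dpysl3 and Dpysl5 encode collapsin response mediator proteins, which bind microtubules in growing axons. Dpysl3 was at 25.0 and 25.5 CPM in Control and 45.0 and 45.2 in Sox11, a log2 difference of 0.83 (SE 0.18), and Dpysl5 at 14.0 and 11.6 against 31.3 and 25.3, a log2 difference of 1.13 (SE 0.22). For both genes the spread within each group was small beside the gap, which a choice by smallest p and no overlap favours. When more response genes were required to be at 0, the log2 differences were 0.44 for Dpysl3 and 0.82 for Dpysl5. From 0 to 5 or more response UMIs, Dpysl3 went from 45.0 to 243 CPM in Sox11 1 and from 45.2 to 222 in Sox11 2.

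Kcnmb2, an auxiliary subunit of large-conductance calcium-activated potassium channels, was at 6.97 and 7.24 CPM in Control and 17.2 and 15.8 in Sox11. In Xist-type members it was at 6.76 CPM in Control 1, 5.03 in Sox11 1 and 18.6 in Sox11 2. Y-type members had 7.22 CPM in Control 2, 26.1 in Sox11 1 and 13.8 in Sox11 2. The Xist-type nuclei of Sox11 1 were thus not above those of Control 1. Srgap1, a GTPase-activating protein of the Slit and Robo guidance pathway, was at 13.3 and 10.0 against 26.5 and 22.7 CPM. March1, a ubiquitin ligase of membrane proteins, was at 51.1 and 44.4 against 76.1 and 102 CPM. Fgf1, a fibroblast growth factor, had the widest spread in Sox11, at 131 and 45.0 CPM against 29.5 and 17.2 in Control, for a log2 difference of 1.89 (SE 0.41). Zfp462, a zinc finger protein of chromatin, and the antisense transcript Gm5441 had log2 differences of 0.82 and 1.07.

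On the lower side, the 10 genes with the smallest p were a mixed group, and none passed (edgeR adjusted p from 0.474 to 0.560). Mt3, the metal-binding metallothionein of brain, was at 22.5 and 25.6 CPM in Control and 9.46 and 12.7 in Sox11, a log2 difference of -1.10 (SE 0.22). Alcam, a cell adhesion molecule of the immunoglobulin family, was at 131 and 132 against 91.9 and 71.1 CPM. Ckb, the brain creatine kinase, was at 77.8 and 94.3 against 53.0 and 52.4 CPM. In each of these the 2 Sox11 libraries lay below both Control libraries, which the naming rule required.

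Zranb2, a splicing regulator, was at 574 and 630 CPM in Control and 410 and 310 in Sox11. Taf1d, a subunit of an RNA polymerase I factor, was at 106 and 141 against 74.4 and 54.7 CPM, and Klhl1, a kelch-like actin-binding protein, at 68.6 and 99.4 against 34.6 and 52.8. Lin7b, a scaffold protein of synapses, had a log2 difference of -0.80, Mlf2 of -0.88, Churc1 of -1.25 and the protein-coding AC149090.1 of -0.93.

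**Figure D3:**
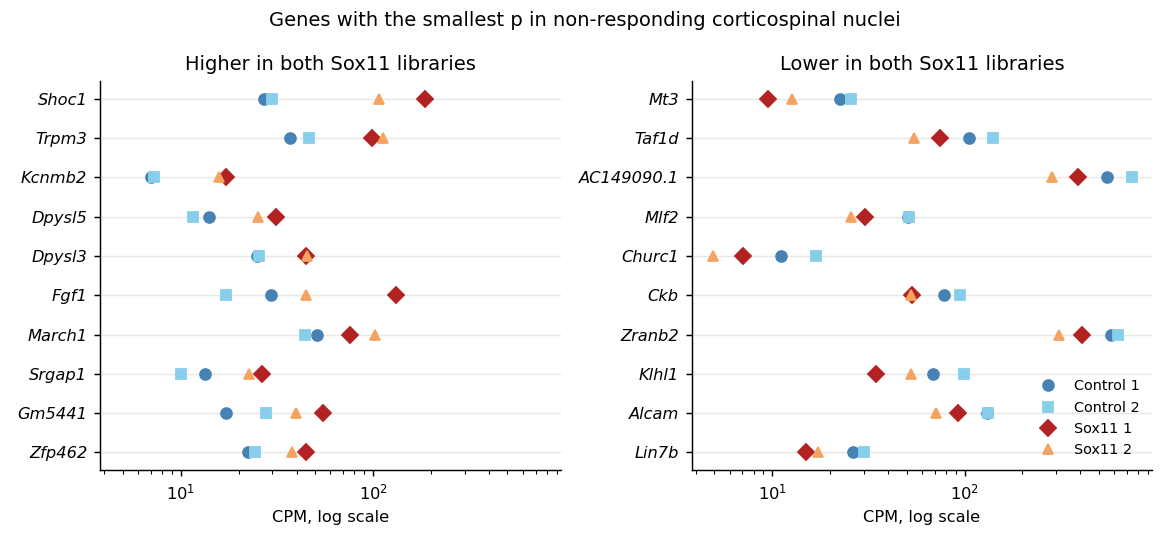
Levels in non-responding corticospinal nuclei (horizontal axes, CPM on a log scale) of the 10 genes with the smallest p on each side whose mean reached 10 CPM and whose groups did not overlap; each symbol is a library. Shoc1 and Trpm3 alone passed the test, and Shoc1 shows the widest relative gap of the 20, from 29.9 CPM in Control 2 to 107 in Sox11 2.

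A pair of genes that the naming rule left out for their low level had the next smallest p after Trpm3, and they are named after their values were seen. Marcksl1, a membrane and actin regulator of young neurons, was at 0.185 and 0.0710 CPM in Control (3 and 1 UMIs) and 2.27 and 3.42 in Sox11 (17 and 44 UMIs), with an edgeR adjusted p = 0.0796. Anxa4, a calcium-dependent membrane-binding annexin, was at 18.6 and 10.6 CPM in Control and 2.00 and 3.11 in Sox11, a log2 difference of -2.48 (SE 0.36, edgeR adjusted p = 0.0796). From 0 to 5 or more response UMIs, Anxa4 was 2.00, 2.31, 1.81 and 1.67 CPM in Sox11 1 and 3.11, 1.39, 2.00 and 2.18 CPM in Sox11 2.

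The genes called in all gated nuclei had smaller differences in the members. Both comparisons share the members and the Control libraries, so their values are set side by side without a test. Of the 398 genes that rose in all gated nuclei, 331 were tested in the members, and Shoc1 and Trpm3 passed there. The median log2 difference was 0.51 over the 331, against 1.65 over the 398 in all gated nuclei. It was 0.44 over the 257 tested in the nuclei without Slc17a7, so these medians are over unlike sets of genes. The summed level of the 331 was 7724 and 7948 CPM in Control members and 10330 and 10460 in Sox11 members. Both Sox11 libraries stood above both Control libraries at 254 of the 331 (76.7%), beside 15.7% of all genes tested in members and 26.9% of those tested in all gated nuclei.

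Of the 163 genes that fell in all gated nuclei, 161 were tested in the members and none passed. Their median log2 difference was -0.62, against -1.14 over the 163 in all gated nuclei and -0.49 over the 128 tested in the nuclei without Slc17a7. The sums were 8516 and 8421 CPM in Control and 6666 and 5982 in Sox11 members, and both Sox11 libraries stood below both Control libraries at 145 of the 161 (90.1%), beside 16.6% of all genes. Shoc1 was 1 of 4 genes on the higher side, and 5 on the lower side, whose difference in the members was at least as large as in all gated nuclei. The other 8 were noncoding or low genes such as Lgals9, a galectin, at 1.36 and 1.56 CPM against 0.266 and 0.466. The sign in the members was opposite at 6 of the 331 genes on the higher side and at 0 of the 161 on the lower side. Draxin, a secreted guidance protein, was 1 of the 6, with a log2 fold change of 1.84 in all gated nuclei and -1.63 in the members. Its levels in members were low, at 0.863, 0.994, 0.266 and 0.311 CPM, and it did not pass there (edgeR adjusted p = 0.840).

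**Figure D4:**
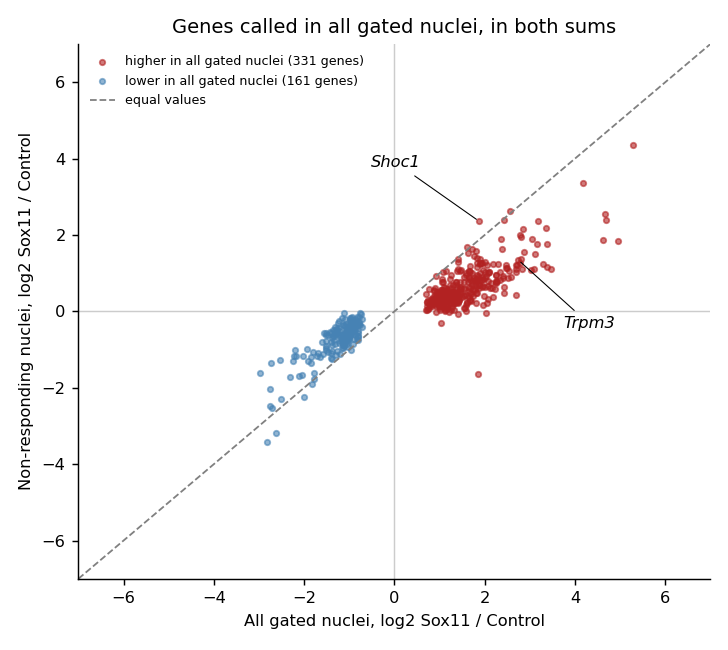
Log2 difference of Sox11 from Control in all gated nuclei (horizontal axis) and in non-responding nuclei (vertical axis), 1 point per gene among the 492 genes called in all gated nuclei and tested in both; the dashed line marks equal values. Most points lie between the dashed line and 0, and Shoc1 lies above the line at 2.36 against 1.88.

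The gene lists gave few differences by their medians. Lists were written with earlier results of these data known, so they carry no independent support for a direction; the one list member that passed was Shoc1, which is in the list of higher genes taken from the earlier results. Over all 15433 genes the median log2 difference was -0.0016. Immature neuron genes had a median of 0.14 over 35 tested members, with both Sox11 libraries above both Control libraries at 18 (51.4%, beside 15.7% of all genes) and below at 3, and in all gated nuclei the list had a median of 0.51 with 11 members that rose. In that list Dcx, a microtubule protein of migrating neurons, was at 43.5 and 55.3 CPM in Control and 71.6 and 80.3 in Sox11 members. Stmn1, which destabilises microtubules, was at 35.3 and 42.0 against 41.4 and 67.0 CPM, so Sox11 1 lay inside the Control range. The most abundant members of the list, Nfib and Map1b, had log2 differences of 0.13 and 0.12.

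Genes of axon guidance (47 tested, median 0.06), ion channels (60, median 0.07), glutamate receptors (44, median 0.09), synaptic vesicles (47, median -0.0036) and the extracellular matrix (20, median -0.03) had medians near that of all genes. Robo1, a receptor for Slit, was at 1434, 1548, 1725 and 1577 CPM, and Syt1, the calcium sensor of vesicle release, at 3303, 3429, 3432 and 3443 CPM. Regeneration-associated genes (20 tested, median -0.04) included Gap43, a growth cone protein, at 205, 178, 247 and 208 CPM. For each of these the gap between the groups was within, or close to, the spread of the libraries. Immediate early genes (20, median 0.07), clock genes (18, median -0.05), cadherins (26, median -0.04) and chromatin genes (34, median 0.01) were near 0 as well. Most of the 28 interferon genes were under the filter on low counts (9 tested, median 0.24). Genes of the glucocorticoid response (9 of 12 tested) had a median of 0.12 and stress genes (21) of -0.19.

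Genes of energy supply and translation lay lower as groups, with no member past the threshold. Oxidative phosphorylation genes had a median of -0.29 over 60 tested, with both Sox11 libraries below both Control libraries at 33 (55.0%, beside 16.6% of all genes) and above at 0. Cytosolic ribosomal protein genes had a median of -0.27 over 79 tested, below at 42 (53.2%) and above at 3. Their summed levels were 1626 and 1780 CPM in Control and 1411 and 1515 in Sox11 for the first list, and 1024 and 1216 against 960 and 965 for the second. The nuclei without Slc17a7 had medians of -0.22 and -0.26 for the 2 lists, and the nuclei of the whole gate -0.51 and -0.23.

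The most abundant members of these lists differed little: Atp5a1, a subunit of ATP synthase, was at 67.5, 84.2, 75.0 and 61.4 CPM, and Rpl6 at 50.3, 64.6, 55.0 and 54.7 CPM. Gene length moved with the difference over all genes. In 4 equal bins of the tested genes by length, from the shortest to the longest, the median log2 difference in members was -0.08, -0.02, 0.01 and 0.03, and the share with both Sox11 libraries below both Control libraries was 22.7%, 16.4%, 13.9% and 13.2%. The nuclei without Slc17a7 ran in the same order, from -0.11 to 0.06. The part of gene length in the values of the 2 lists was not tested.

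The median of cholesterol synthesis genes in the members was -0.10 over 24 tested, against a median of -0.59 in all gated nuclei. In members both Sox11 libraries stood below both Control libraries at 2 genes (8.33%, beside 16.6% of all genes). They stood above them at 1 (4.17%, beside 15.7%). Srebf2, a transcriptional regulator of the pathway, was at 73.5, 74.7, 77.6 and 59.9 CPM, so the Control values lay inside the Sox11 range.

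The 2 lists of genes from the earlier results were taken from the same libraries, so their direction is given as a description. The higher list had a median of 0.62 over 34 tested in members, with 1 gene, Shoc1, past the threshold, against 1.88 over 36 in all gated nuclei. The lower list had a median of -0.71 over 24 tested with none past it, against -1.30. Syn2, a synaptic vesicle protein of the lower list, was at 322, 373, 259 and 283 CPM in members.

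Between nuclei of 1 sex the 2 called genes kept their direction. Xist-type members gave Shoc1 at 27.2 CPM in Control 1, 136 in Sox11 1 and 96.7 in Sox11 2, and Y-type members 29.4 in Control 2, 217 in Sox11 1 and 116 in Sox11 2. The log2 fold changes were 2.06 and 2.53, with edgeR adjusted p = 2.82e-11 and 3.01e-07. Trpm3 was 37.0, 108 and 126 CPM in Xist-type members and 46.0, 95.2 and 102 in Y-type members, log2 fold changes of 1.63 (edgeR adjusted p = 2.21e-07) and 1.13 (edgeR adjusted p = 0.132). Each fit has 1 Control library against 2 Sox11 libraries, and the lone Control library was assumed to vary like the Sox11 libraries.

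**Figure D5:**
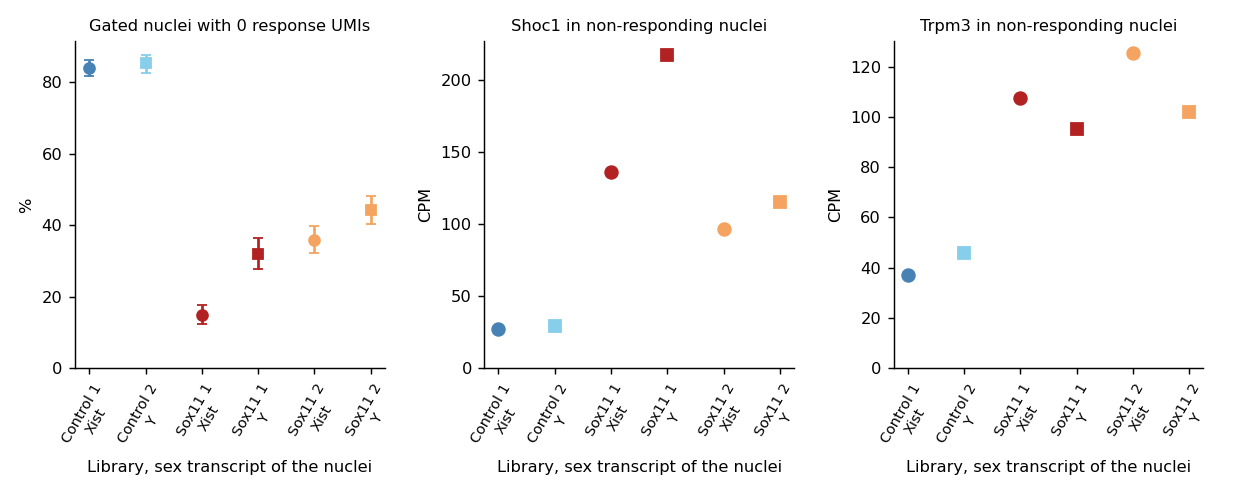
Share of gated nuclei with 0 response UMIs (left, percent with exact 95% intervals) and levels of Shoc1 and Trpm3 in non-responding nuclei (middle and right, CPM) by library and by sex transcript, circles for Xist without a Y transcript and squares for a Y transcript without Xist. Control 1 held the Xist type and Control 2 the Y type; every Sox11 point for Shoc1 and Trpm3 lies above both Control points.

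The Sox11 gene itself was 2.28, 2.70, 2.27 and 2.41 CPM in members, a log2 difference of -0.09 (edgeR adjusted p = 1.00). A vector transcript that lacks the 3′ end of the native gene would not be counted at this gene, so the value checks nothing about vector delivery. A vector entry also named Sox11 had 1 and 0 UMIs in members of Sox11 1 and Sox11 2, and 8 and 6 in gated nuclei with response UMIs. The entry mGL was found in 5.48% and 7.27% of members, and in 7.51% and 10.5% of gated nuclei with response UMIs. The labels do not say what these entries mark. Of the vector entries, BC102 is given among the results for a closer look.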

How the data were processed

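Single-nucleus RNA sequencing was done on sorted brain nuclei with the 3′ kit of 10x Genomics, in 2 Control and 2 Sox11 libraries. The deposited values are UMI counts for each gene in each barcode, whole and not normalized. The submitters' processing notes name Cell Ranger 7.0.1 and mm10, while the file headers give Cell Ranger 7.1.0, 7.1.0, 7.2.0 and 8.0.0. The treatment of intronic reads and the strand setting are not given in the sources used here. Entries for vectors stayed out of library sizes and tests. Barcodes were not filtered beyond the rule; scrublet (scanpy 1.11.5) scored doublets, and 19, 10, 2 and 21 members were marked at 0.8% per 1000 barcodes and removed only in an alternative.

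Counts of the member nuclei were summed per library, because nuclei are not replicates. The 5 response and 6 gate genes were left out, and Sox11 was compared with Control with edgeR 4.0.16 (R 4.3.3), using its quasi-likelihood F test after TMM scaling and the filterByExpr filter; tests were two-sided with a Benjamini-Hochberg threshold of 0.05. The same was done for all gated nuclei and nuclei without Slc17a7. The difference of effects between classes was an interaction over 8 sums with the library as a term. Standard errors come from the fold change and F. An exact permutation test of 2 against 2 cannot go below p = 0.333 and was not used. The fits were tested on simulated data. Coordinates are from GENCODE M21 by gene ID (32235 of 32285 matched). Genes with close relatives, such as the ribosomal proteins, are uncertain to that extent.

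Named genes were those past the threshold, then those with the smallest p up to 10 per direction, whose mean reached 10 CPM and whose groups did not overlap, plus the 2 most abundant tested members of a list, or those past the threshold, and genes past the threshold of the interaction; 1 gene that the rule names is not reported here. The members and lists were chosen with earlier results of these data known. Alternatives were DESeq2 1.42.0, RLE scaling, no count filter, a replicate block, other UMI ranges, gates and response conditions, equal numbers of nuclei, thinning, doublet removal and leaving out each library. Split by sex and gated nuclei drawn to the members' numbers were added after the data were seen.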

Additional observations from a re-analysis of the deposited data

Results flagged for a closer look

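The effect of Sox11 differed between non-responding corticospinal nuclei and the nuclei without Slc17a7 and without response UMIs at 6 of 14569 genes (0.0412%, edgeR interaction, adjusted p under 0.05). Without Control 1, Control 2, Sox11 1 or Sox11 2 the count was 12, 18, 32 and 36. The mix of cell types in the second class can differ between libraries, and its part was not tested. The effect was larger in the corticospinal members for Trpm3 by 0.888 (adjusted p = 0.00429) and for Unc5d, a netrin receptor, by 1.289 (adjusted p = 0.00165) on the log2 scale. Unc5d was at 7.34, 5.61, 10.1 and 11.8 CPM in members of Control 1, Control 2, Sox11 1 and Sox11 2. It was at 276, 160, 166 and 142 CPM in the nuclei without Slc17a7. Its log2 differences had opposite signs, 0.753 in members and -0.505 in the other class, and neither passed (edgeR adjusted p = 0.753 and 0.996). A Unc5d UMI was found in 4.30% to 7.45% of members by library.

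The effect was lower in the members by -2.023 for Erbb4, a neuregulin receptor (edgeR adjusted p = 0.000469), by -1.43 for the noncoding Gm15398 (0.0427), by -0.9996 for Cntnap5b, a neurexin-like protein (0.00157), and by -0.9975 for Olfm3, a secreted olfactomedin protein (0.00429). Erbb4 was at 4.25, 3.98, 2.27 and 1.94 CPM in members and at 129, 194, 365 and 296 CPM in the nuclei without Slc17a7, where its log2 difference was 1.05 (edgeR adjusted p = 0.366). Gm15398 was at 10.9, 8.95, 9.06 and 5.44 CPM in members and 39.6, 78.5, 126 and 91.9 in the other class. Cntnap5b was at 184, 264, 119 and 152 CPM against 252, 293, 368 and 311, and Olfm3 at 38.7, 32.1, 16.7 and 23.1 against 174, 186, 157 and 242. For Erbb4 and Gm15398 the levels were several times higher outside the gate, and the difference there was at least as large as in members. Over 8 alternatives the difference passed in 8 for Cntnap5b, 7 for Erbb4, 6 for Trpm3 and 5 each for Unc5d, Gm15398 and Olfm3. Without Control 1 the adjusted p was 0.0654 for Unc5d, 0.779 for Gm15398 and 0.176 for Olfm3, and without Sox11 2 it was 0.0872 for Olfm3 and 0.0833 for Trpm3 (edgeR). In none of the 4 genes with a lower effect did the difference within members pass the test (edgeR adjusted p from 0.584 to 1.00).

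Vector entries were counted outside the gene test, and BC102 stood out in Sox11 2, with 3471 UMIs in the members. The labels do not say what the entry marks, and the tables of the Control libraries do not list it. At least 1 UMI was found in 54.8% of members (309 of 564, exact 95% interval 50.6% to 59.0%) and in 72.0% of gated nuclei with response UMIs (625 of 868, 68.9% to 75.0%), at median depths of 18741 and 20117.5 UMIs. At least 10 UMIs were found in 22.2% and 42.5%, and the level was 270 and 667 CPM. In 59 barcodes with 3 or more UMIs of Mog, Mag, Opalin and Mobp and no Slc17a7, a class of oligodendrocyte markers at a median of 3264 UMIs, 35.6% had a UMI (185 CPM) and 3.39% had 10 or more. In the nuclei without Slc17a7 and without response UMIs, at a median of 11176 UMIs, 56.6% had a UMI (338 CPM) and 15.9% had 10 or more. The depths of these classes differ, so their shares are set side by side without a comparison, and the part of free RNA in them was not tested.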

How the results depend on the processing

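Shoc1 in the members passed the threshold under 19 of 19 alternatives, with log2 fold changes from 1.91 to 2.71 and edgeR or DESeq2 adjusted p of at most 0.0374. Trpm3 passed under 14 of 19 (1.13 to 1.71, adjusted p up to 0.184) and was not past it with Slc17a6 at 0 (adjusted p = 0.0673), the stricter gate (0.163), members of 8000 to 15000 UMIs (0.0520), the wider set of response genes (0.184) and Y-type nuclei alone (0.132), for causes that were not tested.

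The count in non-responding corticospinal nuclei (Sox11 against Control, 2) was 4 with DESeq2, 6 when 1 response UMI was allowed, 119 without the count filter, 1 with Slc17a6 at 0, 1 with the stricter gate, 1 in nuclei of 8000 to 15000 UMIs, 1 with the wider exclusion, 69 in Xist-type nuclei and 10 in Y-type nuclei. Leaving out a library gave 16 to 125. In all gated nuclei (561) the count was 0 without the filter, 326 at the members' numbers and 128 to 843 without a library. In Slc17a7-free nuclei (1) it was 20 without the filter and 7 to 36 without a library. The difference between classes (6) was called at 2 genes with DESeq2, 24 without the filter, 43 without the response condition and 12 to 36 without a library. With 1 library in an arm, the lone one is assumed to vary like the other group. Causes were not tested.

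The deviations of same-numbered libraries had a correlation of 0.0668 in members, 0.0659 in all gated nuclei and -0.0371 in Slc17a7-free nuclei. These values cannot decide whether the numbers mark a shared day or batch, because Control 1 and Control 2 also differed by sex. The replicate block gave 4 calls in members, 1533 in all gated nuclei and 20 in Slc17a7-free nuclei, against 2, 561 and 1 without the block. Xist and Uty turned direction without a Control library, as the Control libraries were of opposite sex: Xist had a log2 difference of 12.09 without Control 1 and -1.248 without Control 2, and Uty of -1.15 without Control 1 and 7.481 without Control 2. The share of gated nuclei without response UMIs, thinned to 8000 UMIs, was 90.94%, 91.81%, 34.87% and 53.35%. It was 81.98% in Control 2 from 15000 UMIs up and 26.92% in Sox11 1 with the stricter gate. Depth limits what low genes can show: the members' sums ranged from 7504912 to 16217257 UMIs, the lowest over 292 nuclei.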
